A study of Arabidopsis thaliana with 12 samples.

Results

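The transcript response of wild-type Arabidopsis thaliana to the cytokinin t-zeatin was read from 6 of the 12 arrays of the series. The Col-0 t-zeatin group comprised 3 arrays of Col-0 plants (stock N1092) treated with 20 µM t-zeatin for 3 h, and the Col-0 untreated group 3 arrays of the same stock with no treatment. Both groups were complete plants of 21 days in the vegetative stage, and the arrays were taken by their source name and treatment, without use of any measured value. The untreated plants are not a mock treatment, so the handling and solvent of the hormone treatment cannot be told apart from the hormone. The sample labels used here give no hour of harvest, so a difference in time of day between the groups cannot be told apart either. The remaining 6 arrays hold plants that overexpress ARR22 (ARR22-ox), with and without the same treatment, and serve here for a single comparison at the end.

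Cytokinins are adenine-derived hormones that promote shoot growth, cell division and chloroplast development and delay leaf senescence. They bind histidine kinase receptors, which pass a phosphate through histidine phosphotransfer proteins to response regulators. Type-B regulators are transcription factors, and among their first targets are the type-A regulators, which dampen the pathway. Cytokinin levels are lowered by oxidases and by glucosyltransferases that conjugate the hormone to sugar.

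The values are MAS5 signals, a linear array intensity that was scaled to the same trimmed mean on every array. Pearson correlations of log2 signal across all probe sets lay between 0.962 and 0.963 among the t-zeatin arrays and between 0.962 and 0.964 among the untreated arrays, against 0.939 to 0.944 between the groups, so that none of the 6 arrays stood apart by correlation. The second actin control, read at both ends of its transcript as a measure of RNA integrity, had 3'/5' signal ratios of 1.30 to 1.37 on the t-zeatin arrays and 1.18 to 1.26 on the untreated arrays, which do not overlap, whereas the ranges of the first GAPDH control, 1.01 to 1.08 in each group, did. The first actin control had ratios of 6.12 to 6.75 on the t-zeatin arrays and 3.40 to 6.75 on the untreated arrays, where untreated replicate 2 had the 3.40 and the other 5 Col-0 arrays had at least 5.92. The second GAPDH control had ratios of 0.767 to 0.830 on the t-zeatin arrays and 0.801 to 1.03 on the untreated arrays, ranges that overlap. The part of these differences in the results below was not tested. The titles of the 3 t-zeatin arrays end in a further number that the labels do not explain, and a batch marked by it cannot be told apart from the treatment. The labels do not say that the arrays of a group came from separate plants or pools, so the p-values measure only the spread between these arrays. RR22 (ARR22), the overexpressed gene, read 2752 to 3132 on the ARR22-ox t-zeatin arrays and 2857 to 3661 on the ARR22-ox untreated arrays, against 0.397 to 0.585 on the Col-0 t-zeatin arrays and 0.638 to 1.92 on the Col-0 untreated arrays, so the genotype labels held on all 12.

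Of 22746 probe sets, 8181 (36%) were called by limma at a Benjamini-Hochberg adjusted p under 0.05, 4226 up (18.6%) and 3955 down (17.4%). Rises were thus 51.7% of the calls, but 45.1% with the arrays set to the same median and 49.5% after quantile normalization, so the balance of rises and falls turns with the scaling. The median log2 change of all probe sets was -0.0031. The groups did not overlap for 10743 of the 22746 probe sets. Separate groups were also a condition for the largest named rises and falls, so they add no weight to those genes. At least 2-fold changes were called for 987 probe sets up and 779 down, and at least 4-fold changes for 182 up and 115 down. Calls followed signal. With the probe sets in 4 bins of equal size by mean signal, 5.29% were called in the dimmest bin and 68% in the brightest. A dim gene that was not called is thus not shown to be unchanged. In the brightest bin 33.2% were called up and 34.8% down, and counts for families of bright genes are to be read against these shares. Counts of list members below refer to the 13355 genes with a probe set of their own, of which 16.8% were called up and 15.6% down, with a median log2 change of -0.0078. A gene given below by locus tag alone carries no description in the tables used here.

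**Figure D1:**
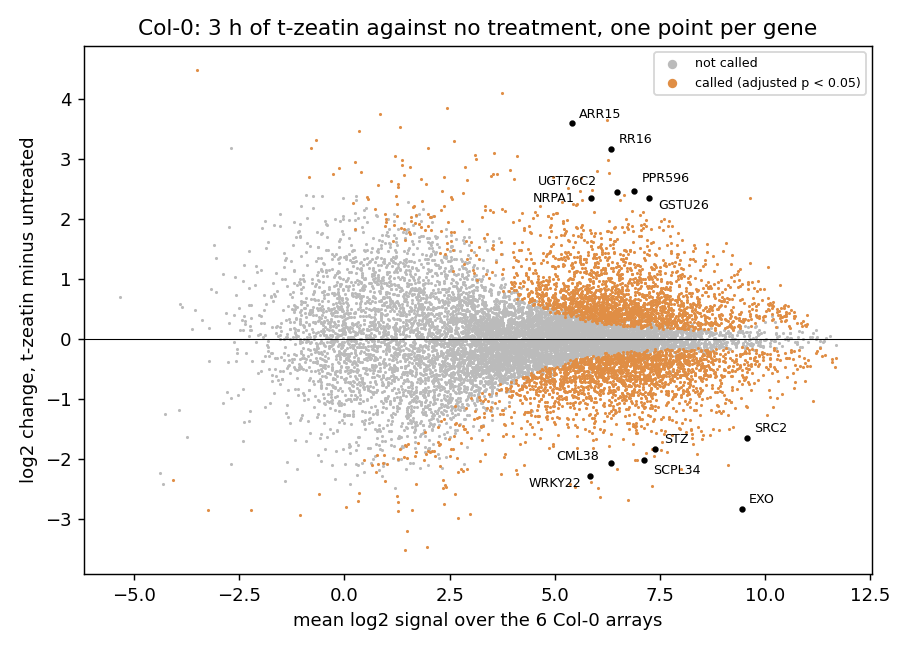
Log2 change of each gene (vertical axis, t-zeatin minus untreated) against its mean log2 signal over the 6 Col-0 arrays (horizontal axis), with called genes in orange, others in grey and 12 genes described in the text in black. ARR15 and RR16 lie highest among the labelled genes and EXO lowest, and most grey points of large change lie at low signal.

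Of the type-A response regulators, both measured members rose. ARR15 (AT1G74890) had signals of 152, 155 and 135 on the t-zeatin arrays and 12.1, 12.6 and 11.7 on the untreated arrays. Every t-zeatin array exceeded every untreated array, and the untreated signals lay close together. The mean was 12.1-fold higher after t-zeatin (log2 change 3.60 ± 0.12, SE; adjusted p = 1.59e-08). RR16 (AT2G40670, ARR16), a close relative, had signals of 232, 236 and 264 on the t-zeatin arrays and 23.7, 26.6 and 31.1 on the untreated arrays, again with no overlap (8.99-fold; log2 change 3.18 ± 0.11, SE; adjusted p = 1.78e-08). Both stood among the 4 largest named rises. With an offset of 16 added to each signal before log2, which shrinks the changes of dim genes, the log2 changes were 2.53 for ARR15 and 2.59 for RR16.

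The only measured type-B regulator, RR18 (AT5G58080), was dim: its signals were 4.52, 14.0 and 11.8 on the t-zeatin arrays and 9.14, 7.87 and 8.36 on the untreated arrays. The groups overlapped and no change was called (log2 change 0.10 ± 0.45, SE; adjusted p = 0.892). No receptor, phosphotransfer protein or cytokinin synthesis gene on the lists had a probe set of its own in the table of gene names, so those steps of the pathway were not analysed here.

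Of the 3 measured enzymes on the list of cytokinin oxidation and conjugation, UGT76C2 (AT5G05860) alone was called, and it rose. This N-glucosyltransferase had signals of 202, 215 and 208 on the t-zeatin arrays and 39.8, 44.5 and 31.9 on the untreated arrays (5.39-fold; log2 change 2.44 ± 0.12, SE; adjusted p = 9.22e-08). The groups lay far apart. UGT76C1 (AT5G05870), the adjacent locus tag and also a cytokinin N-glucosyltransferase, had signals of 48.6, 47.9 and 45.9 on the t-zeatin arrays and 50.8, 48.9 and 55.4 on the untreated arrays. All its t-zeatin signals lay just below the untreated ones, but the change was not called (log2 change -0.12 ± 0.11, SE; adjusted p = 0.443). UGT73C1, of a group of O-glucosyltransferases, was below a signal of 1 on all 6 arrays. Among all genes 16.8% were called up and 15.6% down. In the wider family of 47 UDP-glycosyltransferases 10 were called up and 6 down, with a median log2 change of 0.26. Its further named rise at readable signal was UGT76E11, with 47.5 ± 1.75 after t-zeatin and 17.6 ± 1.53 untreated (SD, n = 3; log2 change 1.43).

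**Figure D2:**
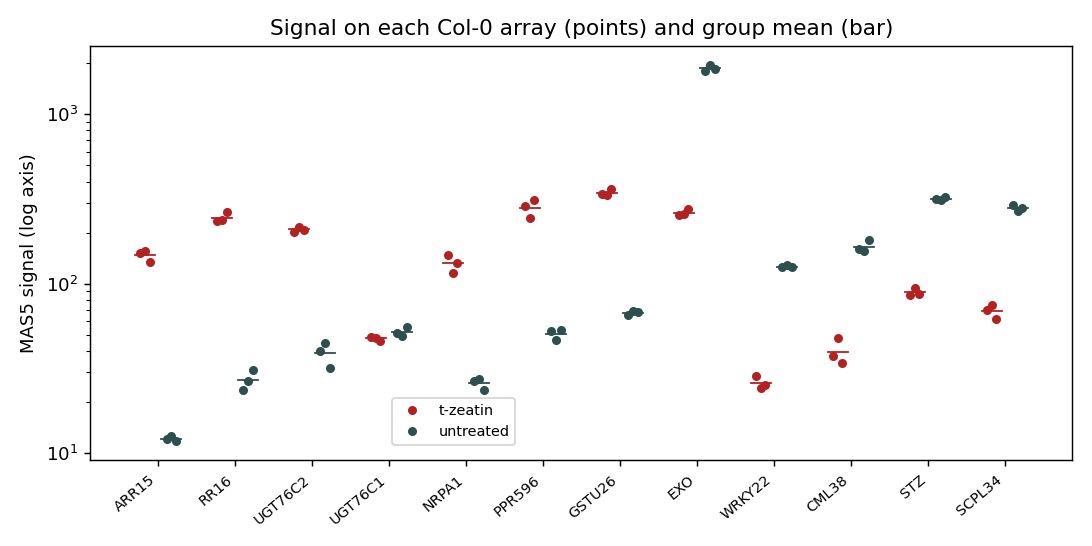
MAS5 signal on a log axis for 12 genes, with each t-zeatin array as a red point, each untreated array as a dark point to their right, and group means as bars. The groups are separate for all 12 genes, narrowly so for UGT76C1, which was not called.

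The largest named rise was that of AT1G51380, with signals of 47.3, 59.9 and 60.2 on the t-zeatin arrays and 12.4, 0.425 and 6.33 on the untreated arrays. Its untreated signals spread widely at the bottom of the scale, so the fold is poorly fixed (log2 change 4.11 ± 0.96, SE; adjusted p = 0.00649). Without untreated replicate 2 its log2 change was 2.65 and without untreated replicate 1 it was 5.08, and the call was lost with no trend of the variance on signal (adjusted p = 0.0692). AT5G47980 came next, with signals of 284, 267 and 259 on the t-zeatin arrays and 21.9, 16.6 and 27.0 on the untreated arrays. Its mean was 12.4-fold higher after t-zeatin and the groups lay far apart (log2 change 3.65 ± 0.15, SE; adjusted p = 4.51e-08). AT4G11190 varied little within groups, with signals of 214, 224 and 212 on the t-zeatin arrays and 28.4, 26.6 and 27.2 on the untreated arrays (log2 change 2.98 ± 0.081, SE; adjusted p = 4.78e-09). AT5G09840 had a log2 change of 3.05 that was 2.12 without untreated replicate 2, its dimmest array.

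The other named rises were AT2G18900, AT3G59670, AT1G30960, AT4G04940, AT1G16830, AT3G12860, AT1G10585, AT5G51440 and PPR596, with log2 changes of 2.46 to 2.81. PPR596 (AT1G80270) encodes a pentatricopeptide repeat protein of mitochondria, a class that binds organelle RNA. Its signals were 288, 243 and 310.4 on the t-zeatin arrays and 52.5, 46.5 and 53.1 on the untreated arrays. PPR336 (AT1G61870), another protein of this class, had 268 ± 9.43 after t-zeatin and 64.3 ± 2.06 untreated (log2 change 2.06). Separate groups were a condition for naming both genes.

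The measured genes of ribosome production rose as a group. Of 32 genes on the ribosome biogenesis list, for proteins that cut, fold and export precursors of the ribosome, only 8 were measured. All 8 were called up, where 16.8% of all genes were. Their log2 changes ran from 1.18 to 2.32 with a median of 1.28, and their summed signal was 2905 to 2988 on the t-zeatin arrays and 1083 to 1126 on the untreated arrays. AT3G22660 changed most, with signals of 219.8, 215 and 195 on the t-zeatin arrays and 43.9, 36.5 and 45.7 on the untreated arrays. AT5G14520, the pescadillo gene PES, which acts in maturation of the large subunit, had 716 ± 20.4 after t-zeatin and 302 ± 17.2 untreated (SD, n = 3; log2 change 1.25). AT5G41190, NOB1, an endonuclease of small-subunit RNA processing, had 256 ± 19.8 after t-zeatin and 108 ± 6.41 untreated (log2 change 1.25). Further nucleolar genes that lie outside the list, picked after their values were seen, moved the same way. YAO, a nucleolar WD-repeat protein, had a log2 change of 1.78, RBL, REBELOTE, one of 1.85, and IMP4, of the small-subunit processome, one of 1.28.

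Cytosolic ribosomal protein genes rose by smaller amounts. The lists hold 87 genes of the small subunit and 130 of the large subunit. Of 45 measured genes of the small subunit 38 were called up, and of 82 of the large subunit 70. Neither set had a call down, and the median log2 changes were 0.51 and 0.52. These genes are bright: 111 of the 127 lay in the brightest of the 4 bins, where 32.7% of all genes were called up, and 104 of those 111 were called. The middle portion of the 127 changes, from the first to the third quartile, ran from 0.37 to 0.86, against -0.37 to 0.38 over all genes. Only 19 of the 127 rose at least 2-fold. The largest of these changes was that of AT2G32220, with signals of 226, 243 and 249 on the t-zeatin arrays and 48.0, 52.6 and 65.0 on the untreated arrays. The spread among members was wide, from -0.35 to 2.13 on the log2 scale. Paralogous ribosomal protein genes are similar in sequence, and probe sets may not separate all of them.

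**Figure D3:**
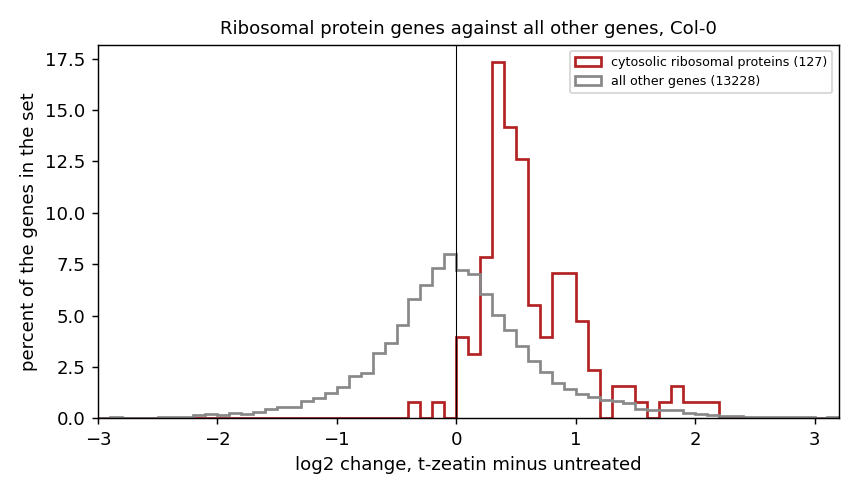
Distribution of log2 changes (horizontal axis, t-zeatin minus untreated) as percent of genes in bins of 0.1, for 127 cytosolic ribosomal protein genes in red and all other genes in grey. The ribosomal protein genes lie mostly above 0, with their median at 0.51.

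The polymerases that transcribe ribosomal and other RNA moved with them. NRPA1, the largest subunit of RNA polymerase I, had signals of 147, 116 and 132 on the t-zeatin arrays and 26.7, 27.4 and 23.6 on the untreated arrays. NRPA2, the second subunit of the same enzyme, had signals of 243, 232 and 277 on the t-zeatin arrays and 75.9, 71.8 and 65.8 on the untreated arrays. Both were separate between groups (5.09-fold and 3.52-fold). Of 12 measured subunits of nuclear polymerases 7 were called up and none down (median log2 change 0.66), where 16.8% of all genes were called up. NRPC2, of RNA polymerase III, rose by 0.85 on the log2 scale, whereas its partner NRPC1 had 22.5 ± 1.51 after t-zeatin and 14.8 ± 2.01 untreated and missed the threshold (log2 change 0.61, adjusted p = 0.0524). Of the subunits named for RNA polymerase II, NRPB7 rose by 1.22 and NRPB12 by 1.17. These names do not exclude a part in the other polymerases. NRPD7 and NRPE7, specific to polymerases IV and V, had changes of 0.019 and 0.086 that were not called.

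A set of 92 genes with a name of their own, changes of at least 2-fold, separate groups and signals at or above the median of 41.1 was read for further roles, with the members picked after the values were known. It held 47 rises and 45 falls, and 89 of the 92 calls held in every alternative setting in which the gene was tested. From this set PPR336 above was picked in the same way. So were POLD3, JRG21, SRC2, IAGLU, CSLC5, ATPMEPCRB, NdhS, GAMMA-VPE, AKINBETA1, APS3, TMT1 and bHLH121 below. Among the rises TRM82, a subunit of a transfer RNA methyltransferase, had 150.4 ± 9.11 after t-zeatin and 44.0 ± 7.03 untreated (log2 change 1.78). TRZ3, a transfer RNA 3' processing enzyme, rose by 1.44 on the log2 scale, and RRP41L, related to the RNA exosome, by 1.62.

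Further rises in this set were picked after their values were seen. PYRB, aspartate transcarbamoylase of pyrimidine synthesis, had 269.9 ± 14.0 after t-zeatin and 123 ± 9.49 untreated (log2 change 1.13), and FAC1, AMP deaminase, 353 ± 9.23 after t-zeatin and 161 ± 11.6 untreated (log2 change 1.13). The chaperone gene Hsp70-2 had 302 ± 29.5 after t-zeatin and 106 ± 0.659 untreated (log2 change 1.51), and Cpn60beta2, of the plastid chaperonin, 564 ± 22.4 after t-zeatin and 242 ± 12.7 untreated (log2 change 1.22). Among regulators, LHW, a transcription factor of vascular development, rose by 1.49, GIS, a zinc finger factor of trichome formation, by 1.24, and NAI1, which controls endoplasmic reticulum bodies, by 1.67. Separate groups were a condition of this set.

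Few cell division genes could be read. PRL (AT4G02060, MCM7), a subunit of the DNA replication helicase, was the only measured member of the cell cycle list, with signals of 62.0, 64.7 and 73.7 on the t-zeatin arrays and 50.3, 53.2 and 47.6 on the untreated arrays. Its call (log2 change 0.40 ± 0.11, SE; adjusted p = 0.0131) was lost without t-zeatin replicate 3 (adjusted p = 0.0599). POLD3, a DNA polymerase delta subunit, had 47.3 ± 2.98 after t-zeatin and 22.7 ± 0.371 untreated (log2 change 1.05). Among all genes 16.8% were called up and 15.6% down. Of 7 tubulin genes, the subunits of microtubules, 6 were called up and none down (median 0.52). TUB1, a beta-tubulin, changed most, with signals of 170.2, 165 and 178 on the t-zeatin arrays and 85.5, 81.8 and 85.5 on the untreated arrays. Of 8 histone genes 2 were called up, both for H2B (HTB1 and HTB4), and 1 down, the linker histone HIS1-3, whose call was lost with all 12 arrays in the fit (adjusted p = 0.0634).

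The largest named fall was that of EXO (AT4G08950, EXORDIUM), a cell wall protein gene that is induced by brassinosteroids and promotes cell expansion. Its signals were 253, 258 and 274 on the t-zeatin arrays and 1804, 1953 and 1843 on the untreated arrays. The groups were 7.13-fold apart with little spread inside either (log2 change -2.83 ± 0.055, SE; adjusted p = 9.46e-10). AT5G10695 had signals of 50.9, 40.9 and 35.3 on the t-zeatin arrays and 249, 264 and 301 on the untreated arrays (log2 change -2.69 ± 0.13, SE; adjusted p = 9.22e-08). AT1G76960 had signals of 29.2, 17.8 and 38.2 on the t-zeatin arrays and 145, 161 and 203 on the untreated arrays (log2 change -2.64 ± 0.24, SE; adjusted p = 7.87e-06). AT5G25240, AT2G41640, AT2G44500, AT5G58120, AT4G28085, AT1G02660, AT3G19680, AT4G34150 and AT1G72060 had log2 changes of -2.50 to -2.02. SCPL34, of the serine carboxypeptidase-like family, closed the named falls with signals of 70.3, 75.0 and 61.8 on the t-zeatin arrays and 290.4, 267 and 279 on the untreated arrays. In that family of 29 genes 4 were called up and 4 down, counts that were 2 and 2 with all 12 arrays in the fit and 6 down without untreated replicate 2. The shares over all genes were 16.8% up and 15.6% down.

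Most of the measured rapid stress and touch genes fell. Of 23 genes on the list 9 were measured, and 6 of these were called down and none up. Among all genes 15.6% were called down. The 9 genes had a median log2 change of -0.89. Their summed signal was 446 to 482 on the t-zeatin arrays and 1131 to 1150.3 on the untreated arrays. WRKY22, a transcription factor of pathogen responses, had signals of 28.4, 24.1 and 25.3 on the t-zeatin arrays and 124, 129 and 125 on the untreated arrays (log2 change -2.28 ± 0.10, SE; adjusted p = 7.73e-08). CML38, a calmodulin-like calcium sensor, had signals of 37.2, 47.7 and 33.8 on the t-zeatin arrays and 159, 155 and 182 on the untreated arrays. STZ (ZAT10), a zinc finger repressor induced by salt and cold, had signals of 85.4, 94.3 and 86.9 on the t-zeatin arrays and 317, 309 and 324 on the untreated arrays. In all 3 genes the groups were clearly separate. CML42, PUB24 and PUB23, a second calcium sensor and a pair of U-box ubiquitin ligases of immune signalling, had log2 changes of -1.14, -0.89 and -0.80. The other 3 members were not called: WRKY53 had a log2 change of -0.36, PUB22 of -0.10 and WRKY6 of 0.046.

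The only measured members of the jasmonate list and of the salicylate and defence list both fell. PDF1.2, a defensin gene that marks jasmonate and ethylene signalling, had signals of 809.7, 775 and 791 on the t-zeatin arrays and 1715, 1659.5 and 1853 on the untreated arrays. SAG101, a partner of the immune regulator EDS1, had 21.8 ± 3.33 after t-zeatin and 47.0 ± 4.73 untreated (log2 change -1.12). JRG21, jasmonate-regulated gene 21, which is not on the list, rose, with 47.3 ± 2.13 after t-zeatin and 20.8 ± 6.02 untreated (log2 change 1.22). All 3 measured genes of the abscisic acid, drought and cold list were called down: log2 changes were -0.99 for COR15B, -0.74 for COR15A and -0.35 for COR47. Their proteins protect membranes and proteins during freezing. The call of COR15A was lost when the 6 ARR22-ox arrays entered the estimate of spread (adjusted p up to 0.374). SRC2, a C2-domain protein gene induced by cold, had 428 ± 8.13 after t-zeatin and 1343 ± 26.1 untreated (log2 change -1.65), and TET8, a tetraspanin found on extracellular vesicles, 335 ± 40.3 after t-zeatin and 951 ± 78.8 untreated (log2 change -1.51).

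Auxin genes on the list either fell or were not called. IAA29, an Aux/IAA repressor, had signals of 27.2, 28.9 and 25.7 on the t-zeatin arrays and 53.9, 57.8 and 59.7 on the untreated arrays. WES1 (GH3.5), which conjugates auxin and salicylate to amino acids, had signals of 77.8, 76.4 and 79.9 on the t-zeatin arrays and 166, 156 and 161 on the untreated arrays. GH3.3, a related enzyme, had 38.1 ± 2.73 after t-zeatin and 63.8 ± 11.8 untreated (log2 change -0.73). All 3 were called with separate groups, while the dim genes GH3.1 and IAA20 were not called (log2 changes -1.81 and 0.33). Outside that list GH3.17, of the same enzyme family, was called up by 0.49, and IAGLU, an indole-3-acetate glucosyltransferase, had 167 ± 17.7 after t-zeatin and 74.7 ± 19.7 untreated (log2 change 1.19). EIN3, the central transcription factor of ethylene signalling, had a log2 change of -0.16 whose call was lost in 8 of 13 settings.

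Cell wall loosening families held both rises and falls. Among all genes 16.8% were called up and 15.6% down. Of 18 expansins 5 were called up and 5 down, or 2 and 3 with all 12 arrays in the fit. The 5 that rose were all alpha-expansins (EXPA16, EXPA15, EXPA9, EXPA8 and EXPA4), with log2 changes of 0.45 to 1.93. Those that fell were 3 expansin-like genes (EXLA1, EXLA2 and EXLB1), EXPB3 and the root hair gene EXPA7. EXPA16 had signals of 70.8, 73.1 and 71.1 on the t-zeatin arrays and 19.8, 18.1 and 18.7 on the untreated arrays. EXLA1 had signals of 249, 272 and 256 on the t-zeatin arrays and 688, 766 and 754 on the untreated arrays. Of 9 xyloglucan endotransglucosylase genes, whose products cut and rejoin wall xyloglucan, 4 were called down and 1 up. XTH18 had signals of 103, 88.6 and 131 on the t-zeatin arrays and 430.2, 424 and 331 on the untreated arrays, whereas XTH32 had 392, 490.4 and 517 on the t-zeatin arrays and 155, 142 and 147 on the untreated arrays. Neither gene had overlapping groups. GH9C2, an endoglucanase, had 447 ± 14.2 after t-zeatin and 132 ± 13.7 untreated (log2 change 1.77), and CSLC5, of the xyloglucan backbone synthase family, 204 ± 9.99 after t-zeatin and 91.1 ± 11.8 untreated (log2 change 1.17). ATPMEPCRB, a pectin methylesterase, had 64.8 ± 7.01 after t-zeatin and 184 ± 8.77 untreated (log2 change -1.51).

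Secreted signalling peptides of the RALF family, which are read by receptor kinases at the cell wall, also held both rises and falls. Of 11 genes 3 were called up and 4 down, or 2 of each with all 12 arrays in the fit. Among all genes 16.8% were called up and 15.6% down. RALFL22 had 225 ± 5.90 after t-zeatin and 543 ± 10.9 untreated and RALFL33 316 ± 8.64 after t-zeatin and 726 ± 25.8 untreated (log2 changes -1.27 and -1.20). RALFL34, in contrast, had 684 ± 19.6 after t-zeatin and 445 ± 19.4 untreated (log2 change 0.62).

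The photosynthesis genes measured from the lists were lower after t-zeatin. They were only 3 of 16 light-harvesting genes and 2 of 12 genes of chlorophyll synthesis. The 3 measured light-harvesting genes, LHCB4.1, LHCB4.2 and LHCB4.3, which encode the antenna protein CP29, had log2 changes of -0.39, -0.46 and -0.996. CHLM, a methyltransferase of chlorophyll synthesis, had signals of 547, 643 and 641 on the t-zeatin arrays and 1126, 1082 and 1086 on the untreated arrays. PORB, a protochlorophyllide reductase, had a log2 change of -0.50. NdhS, of the plastid NDH complex and on neither list, had 204 ± 12.4 after t-zeatin and 423 ± 34.9 untreated (log2 change -1.05). Plastid-encoded transcripts stayed closer to 0, with 5 of 69 genes called up and 2 down and a median log2 change of 0.10. None was called up with all 12 arrays in the fit, and 4 were called down without untreated replicate 3. The shares among all genes were 16.8% up and 15.6% down.

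Of 9 ATG8 genes, whose products coat autophagosomes, 6 were called down and 1 (ATG8B) up. For this and the families below, the shares among all genes were 15.6% down and 16.8% up. ATG8E had signals of 223, 223 and 189.9 on the t-zeatin arrays and 476, 490.4 and 485 on the untreated arrays. ATG8F had signals of 529.6, 511 and 479 on the t-zeatin arrays and 1088, 1110.5 and 1109 on the untreated arrays. Both were separate between groups (2.28-fold and 2.18-fold lower after t-zeatin). Of 11 genes of the ESCRT complexes, which sort membrane proteins for the vacuole, 5 were called down and none up, among them VPS60.1 (-0.998) and VPS2.1 (-0.92). GAMMA-VPE, a vacuolar processing protease, had 315 ± 11.5 after t-zeatin and 679 ± 6.66 untreated (log2 change -1.11). AKINBETA1, a subunit of the energy sensor kinase SnRK1, had 242 ± 13.4 after t-zeatin and 523 ± 29.1 untreated (log2 change -1.11). Of 12 ubiquitin-specific proteases 5 were called up and none down, led by UBP21 (1.20), UBP23 (1.16) and UBP24 (0.999).

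Of 11 glutathione transferases of the tau class 5 were called down, 1 was called up and 5 were not called. The rise was large. GSTU26 had signals of 335, 332 and 360.2 on the t-zeatin arrays and 64.9, 68.5 and 68.1 on the untreated arrays, 5.10-fold higher after t-zeatin (log2 change 2.35 ± 0.064, SE; adjusted p = 4.78e-09). Among the 5 falls were GSTU18 (-1.22), GSTU28 (-1.19), GSTU27 (-1.18) and GSTU20 (-0.88). The call of GSTU28, a dim gene, was lost with no variance trend. Of 24 cytochrome P450 genes 5 were called down and 1 up (3 and none with all 12 arrays in the fit), and the largest falls, CYP71B24 and CYP71B23 (-1.42 and -1.20), belong to 1 subfamily. The shares over all genes were 15.6% down and 16.8% up. In sulfur assimilation APS3, an ATP sulfurylase, had 133 ± 8.29 after t-zeatin and 329 ± 25.2 untreated (log2 change -1.30).

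Of 14 SWEET sugar transporters 5 were called up and 1 down, with a median log2 change of 0.031. Among all genes 16.8% were called up and 15.6% down. SWEET1 was first among the SWEET rises (0.64). TMT1, a vacuolar sugar importer, had 364 ± 25.3 after t-zeatin and 179 ± 4.10 untreated (log2 change 1.02). Of 14 bZIP factors 6 were called down and 1 up. The largest of these falls, that of the dim gene BZIP34 (4.91 ± 2.86 after t-zeatin and 12.6 ± 4.23 untreated, log2 change -1.50), lost its call in 7 of 11 settings. BZIP60, of the unfolded protein response, had a log2 change of -0.65, and BZIP53, a factor of amino acid metabolism under low energy, -0.63. With all 12 arrays in the fit 3 SWEET genes were called up and 3 bZIP genes down.

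**Figure D4:**
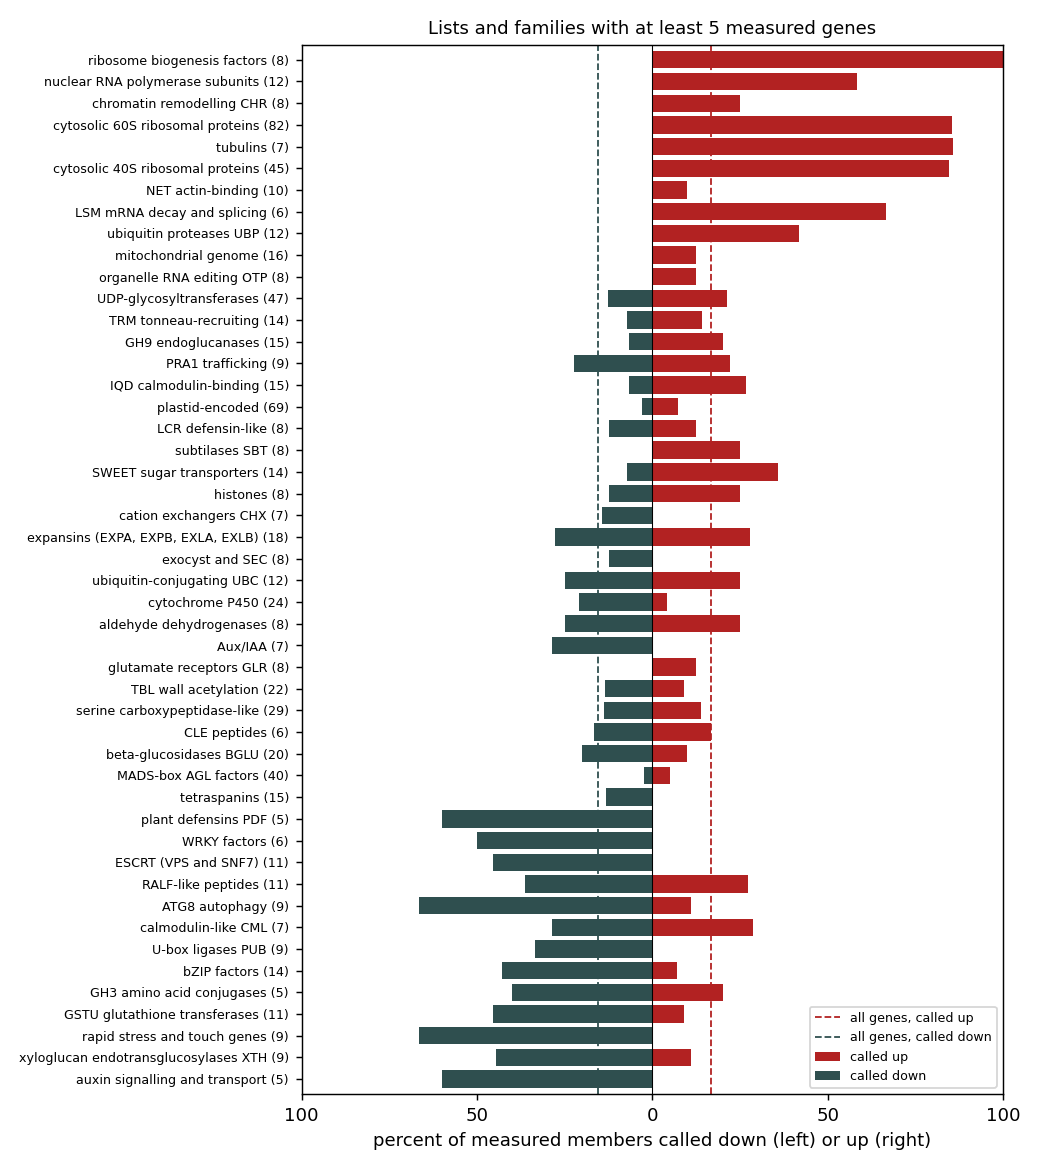
Percent of measured members called up (red, to the right) or down (dark, to the left) for each list or family with at least 5 measured genes, whose number stands in brackets, in order of the median log2 change. Dashed lines mark all genes, 16.8% up and 15.6% down. Ribosome biogenesis factors and ribosomal proteins lie far to the right, and rapid stress genes and ATG8 genes to the left.

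Single members of further lists also changed. GI (GIGANTEA), a clock and flowering gene, had signals of 77.9, 80.4 and 72.1 on the t-zeatin arrays and 33.0, 27.7 and 31.8 on the untreated arrays. Its call was lost with all 12 arrays in the fit (adjusted p = 0.0587). AT1G47400, of the iron deficiency list, had signals of 147, 141 and 129 on the t-zeatin arrays and 43.6, 56.4 and 55.3 on the untreated arrays, while the iron regulators PYE and BHLH101 were not called (log2 changes 0.13 and 0.25). bHLH121, an upstream activator of iron uptake, had 103 ± 14.5 after t-zeatin and 211 ± 10.2 untreated (log2 change -1.04). DFR, an enzyme of anthocyanin synthesis, had 57.4 ± 4.85 after t-zeatin and 133 ± 13.9 untreated (log2 change -1.22), and this call too was lost with all 12 arrays (adjusted p = 0.0626). UF3GT and AT4G14090, later in the same pathway, were not called.

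The tissue label could be checked against few genes. The leaf markers PORB and LHCB4.2 had summed signals of 2707 to 2819 on the t-zeatin arrays and 3807 to 3882 on the untreated arrays. The root hair marker EXPA7 had signals of 22.8, 19.5 and 31.3 on the t-zeatin arrays and 44.7, 36.2 and 37.6 on the untreated arrays, and its call was lost without untreated replicate 1, without t-zeatin replicate 2 or with no variance trend (adjusted p up to 0.0692). The meristem marker CLV3 lay between 0.844 and 2.65 on all arrays, and none of the flower markers was measured. Complete plants mix all organs, so fewer cells of a type and less RNA per cell cannot be told apart, and the part of a shift between leaf and root in the results was not tested. By chromosome, 15.5% to 18.4% of the genes on chromosomes 1 to 5 were called up and 13.9% to 17.2% down.

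The response was finally set against that of the ARR22-ox plants for the 3 first-named rises and the 3 first-named falls. ARR22 is a type-C response regulator, which accepts phosphate from the phosphotransfer proteins but has no DNA-binding part, and its overexpression is known to weaken cytokinin responses. The labels give neither the promoter of the transgene nor the number of lines. The genes were chosen for large changes in Col-0, which leans the comparison towards a difference. One array, ARR22-ox untreated replicate 3, differed from the rest in its second actin 3'/5' ratio, which was 3.47 against at most 1.38 on the other 11, so differences are also given without it. Over all probe sets 28.3% were called for the difference of responses, ARR22-ox minus Col-0.

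For the rises, ARR15 had 6.17 ± 3.74 in ARR22-ox t-zeatin and 10.1 ± 2.29 in ARR22-ox untreated (SD, n = 3 each), below the Col-0 t-zeatin mean of 147 in both. Its log2 difference of responses was -4.57 ± 0.65, SE, adjusted p = 0.000186, or -4.54 without that array and -2.78 with the offset of 16. AT5G47980 had 7.60 ± 2.11 in ARR22-ox t-zeatin and 5.60 ± 2.33 in ARR22-ox untreated, with a difference of -3.17 ± 0.42, SE, adjusted p = 0.000105, or -3.24 without that array. AT1G51380 had 13.5 ± 4.53 in ARR22-ox t-zeatin and 10.3 ± 6.55 in ARR22-ox untreated, and its difference did not pass (log2 -3.46 ± 1.41, SE, adjusted p = 0.0916); it passed without that array, at -4.24 (adjusted p = 0.0177).

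For the falls, EXO had 467 ± 13.2 in ARR22-ox t-zeatin and 148 ± 73.3 in ARR22-ox untreated, against 262 ± 11.0 in Col-0 t-zeatin and 1867 ± 77.2 in Col-0 untreated. The untreated means thus lay far apart between the genotypes, and the log2 difference of responses was 4.60 ± 0.32, SE, adjusted p = 5.23e-07, or 4.98 without that array. AT5G10695 had 105 ± 8.50 in ARR22-ox t-zeatin and 83.7 ± 9.17 in ARR22-ox untreated and a difference of 3.02 ± 0.19, SE, adjusted p = 2.5e-07, or 3.11 without it. AT1G76960 had 143 ± 6.96 in ARR22-ox t-zeatin and 226 ± 99.1 in ARR22-ox untreated and a difference of 2.09 ± 0.46, SE, adjusted p = 0.00396, or 1.67 without it. All 3 falls of Col-0 were called for the difference, but they were chosen for large changes in Col-0, which leans this test towards a call.

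**Figure D5:**
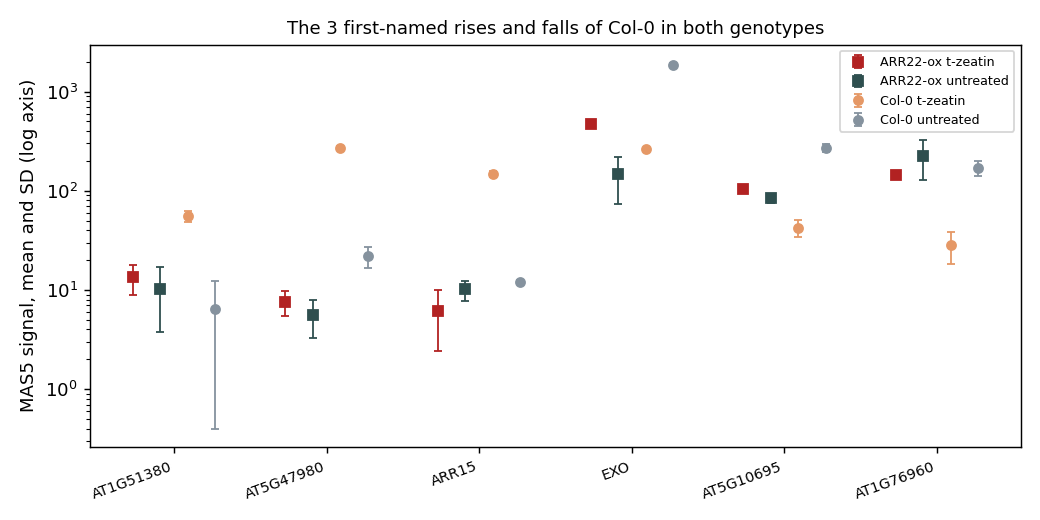
Mean MAS5 signal with SD over 3 arrays on a log axis for the 6 genes, with ARR22-ox t-zeatin, ARR22-ox untreated, Col-0 t-zeatin and Col-0 untreated from left to right. The gap between the Col-0 groups is wider than that between the ARR22-ox groups for each of the 6 genes.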

How the data were processed

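Each value deposited by the authors is a linear intensity of a probe set, made with MAS5 per the submitters' processing notes, with no version given. They were used as deposited: the mean signal after trimming 2% at each end was 100 on every array, and no arrays were identical. The 64 control probe sets were left out and log2 signals of the 6 Col-0 arrays were fitted with limma 3.58.1 in R 4.3.3 (empirical Bayes with a trend of variance on signal, two-sided), with Benjamini-Hochberg adjustment over 22746 probe sets and no filter. The difference of responses used all 12 arrays. Probe sets were named from the array's gene table (13513 with 1 gene, 503 with several, 8730 with none), and 13436 matched RefSeq. The brightest probe set stood for a gene. Folds are ratios of mean signals.

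Genes were named by rule: the 15 called genes of greatest rise and the 15 of greatest fall with separate groups and a higher mean of at least 41.1, then every measured cytokinin gene and up to 4 called members of each list. The comparison, lists, families and genes were chosen with earlier results of these data known. PES, NOB1 and GSTU20 are list or family members that the rule did not name, and they were picked with their values known. Members given to complete the account of a short list also lie beyond the rule. Other genes picked after their values were seen are described as such. Promoter and protein sequences were not used here.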

Additional observations from a re-analysis of the deposited data

Results flagged for a closer look

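The response to t-zeatin differed between the genotypes, by the test of the difference itself (ARR22-ox minus Col-0), for 5 of the 6 genes compared. The log2 differences were -3.17 for AT5G47980 and -4.57 for ARR15, which rose in Col-0, and 4.60 for EXO, 3.02 for AT5G10695 and 2.09 for AT1G76960, which fell in Col-0 (limma, n = 3 arrays in each of 4 groups; adjusted p from 2.5e-07 to 0.00396). These genes were chosen for their Col-0 change, and the differences rest in part on the same Col-0 arrays, which leans the test towards a call. Of all probe sets 28.3% were called for this difference.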

How the results depend on the processing

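The count of 8181 calls lay between 6076 and 8219 under the 7 settings that keep all 6 Col-0 arrays and between 7191 and 7560 when 1 of them was left out. Settings that keep only probe sets at or above the 40th percentile of signal tested 13648 probe sets and the others 22746, so these counts differ in their base. The count of at least 2-fold calls, 1766, was 869 with the offset of 16, which by construction shrinks dim changes, and 1721 to 1811 without 1 array. Of 192 called genes that the naming rule gives, 144 were called under every setting in which they were tested, and no direction turned in the 48 others. The difference of responses of AT1G51380, -3.46 and not called, passed with the offset (-1.53, adjusted p = 0.00305) and ranged from -4.43 to -1.996 when 1 array was left out, passing without Col-0 untreated replicate 1 or ARR22-ox untreated replicate 3; the dim values behind it limit this gene. The difference of ARR15 was -2.78 with the offset. The 5 differences other than that of AT1G51380 were called under each alternative in which they were tested. Replicate numbers follow sample order, so no paired analysis was possible because nothing in the labels pairs the samples. Of 108 counts of list members called, 32 moved by over 1.5 times with all 12 arrays in the fit and 6 to 29 under the other settings, and of 54 list medians 0 to 6 changed sign, depending on the setting. The promoter motif description and the lists matched on gene descriptions were not run, because the tables used here hold neither. With 3 arrays per group, signal near the bottom of the scale limits what can be called.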
